A study of Mus musculus with 6 samples.

Results

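The genes Klf2, Klf4 and Klf5 encode Krüppel-like zinc finger transcription factors, and binding of 5 proteins around them was read from deposited peak lists of mouse embryonic stem cells. The 3 loci were taken as fixed windows of the mm9 build: chr8:74820000-74870000 for Klf2 (50 kb), chr4:55460000-55560000 for Klf4 and its downstream enhancers (100 kb) and chr14:99680000-99740000 for Klf5 (60 kb). All peaks that overlapped a window were members, which gave 55 of the 70533 peaks in the series, with 20 at Klf2, 18 at Klf4 and 17 at Klf5. The rule did not use peak strength, but members and windows were chosen with earlier results of these data known. Chromatin immunoprecipitation and sequencing (ChIP-seq) had been done on J1 embryonic stem cells that carry BirA, a bacterial biotin ligase, in serum with leukemia inhibitory factor (LIF) at 1000 U/ml. Tgif1, Hdac1 and Smad3 were pulled down with antibodies, and Tgif2 and Nanog with streptavidin beads, and the labels do not describe the tagged constructs. All groups shared the BirA background, and a mock sample from the same cells was not analysed here. Each factor had 1 library and 1 list, so nothing below has a replicate check, and no test was made.

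In mouse embryonic stem cells Klf2, Klf4 and Klf5 act in the pluripotency network with overlapping roles and bind GC-rich and CACCC-type sites. LIF acts through Stat3 on Klf4, and all 3 factors are known for keeping the naive state. Nanog is a homeodomain factor of the same network, and Smad3 is a signal transducer that enters the nucleus when TGF-beta or Activin receptors are active. Tgif1 and its paralog Tgif2 are homeodomain corepressors that bind Smad proteins, and Hdac1 is the histone deacetylase of several corepressor complexes.

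Promoter sequence from RefSeq was at hand for Klf2 and Klf4 and is shown because it gives the letters of these genes' starts. Each run holds the 250 bases before the start in build GRCm38.p6, at chr8:72318812-72319061 on the plus strand for Klf2 and at chr4:55532476-55532725 on the minus strand for Klf4. Capitals mark matches to GGGCGG (GC box) or CCACCC (Klf type) on either strand.
Klf2 promoter: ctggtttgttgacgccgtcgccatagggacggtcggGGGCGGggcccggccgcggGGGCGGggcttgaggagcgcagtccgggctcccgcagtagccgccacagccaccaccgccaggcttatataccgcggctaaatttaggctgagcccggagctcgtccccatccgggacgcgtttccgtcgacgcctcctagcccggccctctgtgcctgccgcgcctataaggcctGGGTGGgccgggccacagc
Klf4 promoter: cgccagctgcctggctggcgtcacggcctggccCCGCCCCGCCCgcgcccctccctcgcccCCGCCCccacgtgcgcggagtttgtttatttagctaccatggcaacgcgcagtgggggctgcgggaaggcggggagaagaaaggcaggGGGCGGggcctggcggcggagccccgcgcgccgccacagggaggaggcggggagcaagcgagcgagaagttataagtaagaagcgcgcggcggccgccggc

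Over 300 bases, 250 before and 50 after the start, the Klf2 promoter held 2 matches to the GC box and 1 to the Klf type. The Klf4 promoter held 4 matches to the GC box, 2 of which overlap each other in their letters, and 0 to the Klf type. The GC box was present in 35.7% of the 32851 promoters in the table and the Klf type in 31.5%. The Tgif core TGACA (45.4% of promoters), the Smad core CAGAC (49.6%), the homeodomain core CATTA (26.8%) and the Stat form TTCNNNGAA (8.30%) had 0 matches in these 300 bases of either promoter. The rest of the loci was not searched. GC content of the 250 bases was 71.2% for Klf2 and 74.0% for Klf4, against a median of 52.4% over the table. The promoter coordinates belong to another build than the peaks and cannot be laid on them, so which peak covers a gene start is not stated. In gene order, Klf2 lies between Ap1m1 and Eps15l1, Klf4 between Rad23b and Actl7b, and Klf5 between Pibf1 and Klf12.

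The members comprised 13 Nanog, 12 Tgif1, 12 Tgif2, 10 Hdac1 and 8 Smad3 peaks. Their lists held 17272 Nanog, 16400 Tgif1, 19129 Tgif2, 16506 Hdac1 and 1226 Smad3 peaks. For each peak the lists give tags, the sequenced reads counted in the peak, and a fold enrichment over background, both values of the authors' peak caller. The sources used here do not give library depth, so tags are compared only within a list. Tags in the members summed to 2029 for Nanog over 12665 bp, 1166 for Tgif1 over 15289 bp, 1024 for Tgif2 over 14123 bp, 771 for Hdac1 over 13581 bp and 471 for Smad3 over 6154 bp. Per kb of peak, Nanog reached 160 tags at the loci against 68.6 over its whole list, and Smad3 76.5 against 48.6. For Tgif1 the values were 76.3 at the loci and 63.8 over the list, for Tgif2 72.5 and 66.8, and for Hdac1 56.8 and 47.5. The members held 0.653% of Smad3 peaks and 1.09% of the tags in Smad3 peaks (95% Wilson interval 0.996 to 1.19, counting error only). They held 0.0753% of Nanog peaks and 0.247% of Nanog tags (0.236 to 0.258). The share of tags was also above that of peaks for Tgif1 (0.107% and 0.0732%), Hdac1 (0.0853% and 0.0606%) and Tgif2 (0.0760% and 0.0627%).

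**Figure D1:**
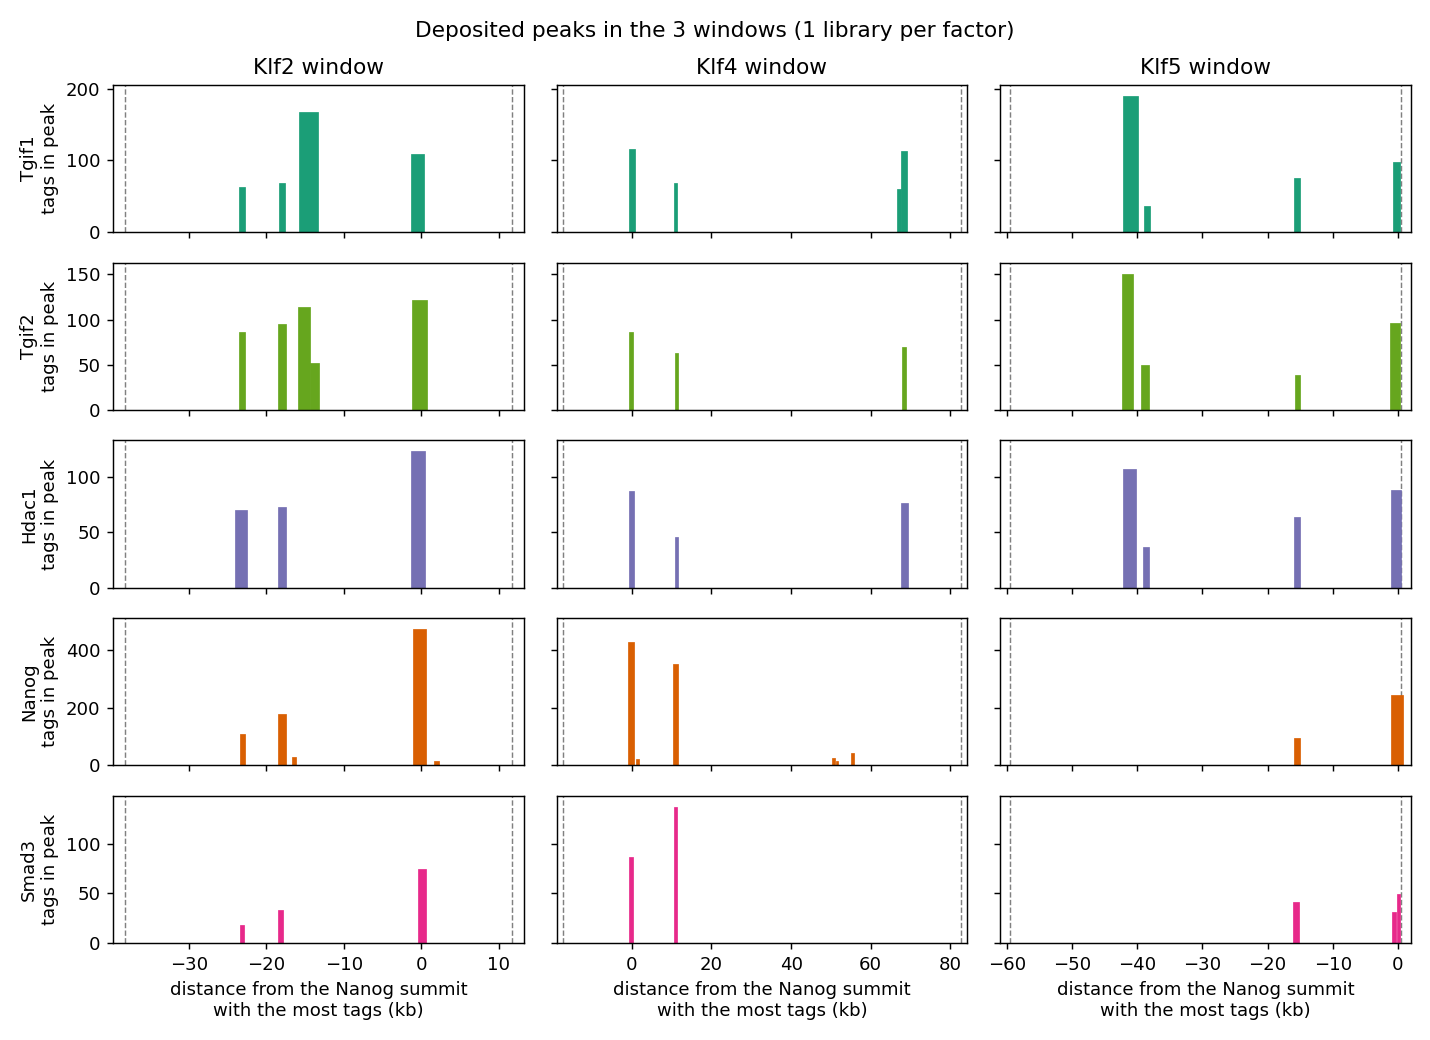
Peaks of the 5 factors (rows) in the windows of Klf2, Klf4 and Klf5 (columns), drawn to scale as bars whose height is the number of tags (y axis, scale per factor) and whose x position is the distance in kb from the Nanog summit with the most tags; dashed lines mark the window edges. Nanog and Smad3 stand at 3 places at Klf2 and 2 each at Klf4 and Klf5 that also carry Tgif1, Tgif2 and Hdac1, while the Tgif1 peaks with the most tags at Klf2 (168 for Tgif1) and Klf5 (190) have no Nanog peak.

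Joining overlapping peaks of the 5 lists gave 18 regions in the windows, numbered here along each chromosome. All 5 factors held 7 of the 18 regions, 3 at Klf2, 2 at Klf4 and 2 at Klf5, whereas 2.01% of the 33152 regions of the series had all 5. No region at the loci had exactly 4 factors, a class with 10.7% of the series. Tgif1, Tgif2 and Hdac1 without Nanog or Smad3 held 3 regions (14.8% of the series), 1 at Klf4 and 2 at Klf5. Tgif1 with Tgif2 alone held 1 region at Klf2 (8.54%), Tgif1 alone 1 at Klf4 (4.50%), and Nanog alone 6, of which 2 at Klf2 and 4 at Klf4 (22.6%). The regions therefore fell into shared sites of all 5 factors, sites of the Tgif factors with or without Hdac1, and sites of Nanog alone. By peaks, 7 of 13 Nanog (4.73% of the list), 7 of 12 Tgif1 (4.62%), 7 of 12 Tgif2 (3.98%) and 7 of 10 Hdac1 peaks (4.46%) lay in regions of all 5. Each Nanog peak at the loci either lay in a region of all 5 factors, as 7 did, or overlapped no other factor. In the 7 shared regions Nanog reached its list's median fold in 7 and Smad3 in 4, whereas Tgif1 did so in 2, Tgif2 in 1 and Hdac1 in 1. In the 658 other regions of all 5 factors, the median fold was above the list's median for every factor. It was 58.0 against 23.7 for Nanog, 9.81 against 9.57 for Smad3 and 17.6 against 13.3 for Tgif1. For Tgif2 it was 15.8 against 14.1 and for Hdac1 13.7 against 10.7. With peaks under their list's median fold left out, 0 of 8 regions at the loci had all 5 factors, and 0.867% of the series' regions did.

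The Klf2 window held 6 regions. Region 5, at chr8:74857000-74858977, carried the strongest Nanog peak of the 3 loci with 471 tags and 120-fold enrichment, rank 34 of 17272 by tags and 480 by fold. Smad3 there had 75 tags at 13.5-fold, rank 74 of 1226 by tags and 196 by fold. Hdac1 had its highest tag number at the loci in this region, 123 at 9.20-fold, which was rank 430 of 16506 by tags but 10548 by fold. Tgif1 had 109 tags at 9.15-fold and Tgif2 122 tags at 10.7-fold.

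Regions 1 and 2 of the Klf2 window had all 5 factors with fewer tags of Nanog. Region 1, chr8:74834242-74835755, held 107 tags of Nanog at 66.5-fold, 86 of Tgif2 at 18.3-fold, 70 of Hdac1 at 11.6-fold, 63 of Tgif1 at 15.1-fold and 18 of Smad3 at 7.49-fold. Region 2, chr8:74839733-74840782, held 177 tags of Nanog at 66.4-fold, 95 of Tgif2 at 10.1-fold, 73 of Hdac1 at 9.65-fold, 68 of Tgif1 at 7.48-fold and 33 of Smad3 at 6.78-fold. The Tgif1, Tgif2 and Hdac1 peaks with the highest fold of this window were thus in region 1. By tags, region 1 was the lowest of the 3 shared regions for each of the 5 factors. By fold, Nanog and Smad3 were lowest in region 2. The gap between regions 1 and 2 was 3.98 kb, and that between regions 2 and 5 was 16.2 kb.

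Between these sites, region 4 of the Klf2 window, chr8:74842325-74845075, held Tgif1 and Tgif2 without Hdac1, Nanog or Smad3. Its Tgif1 peak was 2473 bp wide with 168 tags, the most for Tgif1 in this window and rank 414 of 16400 in the list. By fold the same peak, at 6.50, ranked 15833. Tgif2 had a pair of peaks there, with 114 tags at 8.26-fold and 52 tags at 5.54-fold, the peak of 52 tags ranking 19028 of 19129 by fold. Nanog was present alone in region 3, with 29 tags at 12.0-fold and a gap of 0.229 kb to region 4, and in region 6, with 16 tags at 11.6-fold.

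The Klf4 window held 8 regions, with the sites of all 5 factors at its low-coordinate end. Region 3, chr4:55487816-55488998, carried the strongest Smad3 peak of the loci, with 137 tags at 31.3-fold, rank 15 of 1226 by tags and 9 by fold. Nanog had 352 tags at 119-fold there, rank 98 by tags and 494 by fold of 17272. Tgif1 had 69 tags at 11.6-fold, Tgif2 63 tags at 9.84-fold and Hdac1 46 tags at 5.87-fold. Hdac1 ranked 15785 by fold and 8461 by tags among 16506. It thus stood low in its list by fold but near the middle by tags, with 46 against a median of 47.0.

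Region 1 of the Klf4 window, chr4:55476430-55478130, also had all 5 factors and ended 9.69 kb before region 3. Nanog reached 427 tags at 88.7-fold there, rank 54 of 17272 by tags, and Smad3 87 tags at 14.0-fold, rank 57 of 1226. Tgif1 had 116 tags at 10.2-fold, Tgif2 86 at 8.26-fold and Hdac1 87 at 7.10-fold, in each case the most tags of that factor in the Klf4 window. Nanog alone followed after 0.252 kb in region 2, with 23 tags at 12.3-fold.

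A stretch of 38.6 kb without a peak of any list separated region 3 of the Klf4 window from the next. Regions 4 to 6 beyond it held Nanog alone, with 27, 17 and 42 tags at 8.07-, 18.1- and 14.8-fold. Region 7, chr4:55543855-55544895, held Tgif1 alone with 60 tags at 9.84-fold, and region 8, chr4:55544916-55546618, began 0.0210 kb after it. Region 8 held Tgif1 with 113 tags at 11.1-fold, Hdac1 with 76 tags at 4.11-fold and Tgif2 with 70 tags at 7.08-fold. The Hdac1 peak of region 8 ranked 2526 of 16506 by tags and 16498 by fold, close to the bottom of the list. No Nanog or Smad3 peak overlapped regions 7 or 8.

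The Klf5 window held 4 regions, and its strongest Tgif peaks lay away from Nanog and Smad3. Region 1, chr14:99697229-99699629, held the Tgif1 peak with the most tags and the highest fold at the 3 loci, 190 tags at 38.6-fold, rank 282 by tags and 618 by fold of 16400. Tgif2 had 151 tags at 38.6-fold, also its highest at the loci, rank 890 by tags and 1104 by fold of 19129. Hdac1 had 107 tags at 14.8-fold, the highest Hdac1 fold at the loci, rank 755 by tags and 3850 by fold of 16506. Region 2, chr14:99700196-99701464, followed after 0.567 kb with 37 tags of Tgif1 at 8.19-fold, 50 of Tgif2 at 11.6-fold and 37 of Hdac1 at 7.83-fold.

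Both sites of all 5 factors at Klf5 lay at higher coordinates, 22.1 kb and more after region 2. Region 3, chr14:99723535-99724582, held 96 tags of Nanog at 39.8-fold, 75 of Tgif1 at 13.4-fold, 64 of Hdac1 at 8.37-fold, 41 of Smad3 at 8.01-fold and 39 of Tgif2 at 6.71-fold. Region 4, chr14:99738329-99740387, held 245 tags of Nanog at 71.6-fold, 98 of Tgif1 at 10.5-fold, 96 of Tgif2 at 7.19-fold and 88 of Hdac1 at 7.47-fold. Smad3 had a pair of peaks in region 4, with 31 tags at 10.6-fold and 49 tags at 13.2-fold. Nanog thus ranked 271 of 17272 by tags in region 4 and 1632 in region 3, the lowest of its 7 shared peaks by tags and by fold. No peak of Nanog alone lay in the Klf5 window, although a window extended by 50 kb at each end would hold 7 Nanog peaks in place of 2.

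Smad3, the factor with the shortest list, was found at the loci only where the other 4 factors were. All 8 Smad3 peaks lay in regions of all 5 factors, against 56.6% of the 1226 Smad3 peaks of the series. Hdac1 overlapped 8 of the 8 (81.1% of the list), Nanog 8 (90.3%), Tgif1 8 (67.5%) and Tgif2 8 (63.7%). With peaks under their list's median fold left out, 5 Smad3 peaks remained, overlapped by Nanog in 5 and by Tgif1, Tgif2 or Hdac1 in 0. The shares of the whole Smad3 list under this cut were not computed, so these counts do not set the loci apart. The members' Smad3 tags ran from 18 to 137 with a median of 45.0, against 26.0 for the list, and 7 of the 8 were at or above that median (52.2% of the list).

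Nanog ranged widely at the loci. Its 13 peaks held 16 to 471 tags at 8.07- to 120-fold, with medians of 96.0 tags and 39.8-fold at the loci, against 30.0 tags and 23.7-fold over the list. The 7 peaks in regions of all 5 factors had 96 to 471 tags at 39.8- to 120-fold. The 6 peaks of Nanog alone had 16 to 42 tags at 8.07- to 18.1-fold, and the ranges did not overlap on either measure. These classes also differed over the rest of the series, where the 658 other regions of all 5 had Nanog medians of 146 tags and 58.0-fold. The 7477 other regions with Nanog alone had medians of 24.0 tags and 23.9-fold. Each of the 6 peaks of Nanog alone had a fold below 23.9, while 3 of the 6 reached 24.0 tags. Overlap was 7 of 13 with Hdac1 (45.9% of the list), with Tgif2 (36.7%), with Tgif1 (35.8%) and with Smad3 (6.43%).

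Tgif1 and Tgif2, the corepressor paralogs, were found together at nearly all of their sites. Tgif2 overlapped 11 of 12 Tgif1 peaks (79.2% of the list), the exception being region 7 of the Klf4 window. Tgif1 overlapped 12 of 12 Tgif2 peaks (68.0%). Hdac1 overlapped 10 of the 12 Tgif1 peaks (66.1%) and 10 of the 12 Tgif2 peaks (59.9%). In the other direction Tgif1 and Tgif2 each overlapped 10 of 10 Hdac1 peaks, against 64.6% and 68.4% of the Hdac1 list. Nanog overlapped 7 of 12 Tgif1 peaks (36.7%), 7 of 12 Tgif2 peaks (32.2%) and 7 of 10 Hdac1 peaks (45.6%). Smad3 overlapped the same numbers, against 5.04% of the Tgif1, 4.08% of the Tgif2 and 5.90% of the Hdac1 list. Several of these peaks share a region, so the counts are not independent.

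Peak strength depended on the measure. For Tgif1, 11 of 12 peaks at the loci were at or above the list's median of 54.0 tags (50.6% of the list), but 3 reached its median fold of 13.3 (50.2%). For Tgif2, 9 of 12 reached the median of 57.0 tags (51.1%) and 2 the median fold of 14.1 (50.0%). For Hdac1, 8 of 10 reached 47.0 tags (51.3%) and 2 reached the median fold of 10.7 (50.2%). Nanog had 8 of 13 at or above its median tags (50.0%) and 7 at or above its median fold (50.0%), and for Smad3 5 of 8 reached the median fold of 9.57 (50.0%). Peaks at the loci were wider than their lists, with medians of 1396 bp at the loci and 1038 bp over the list for Hdac1, 1020 and 933 bp for Tgif1, 1075 and 943 bp for Tgif2, 751 and 633 bp for Nanog, and 738 and 689 bp for Smad3. The part of peak width in the gap between the measures was not tested.

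**Figure D2:**
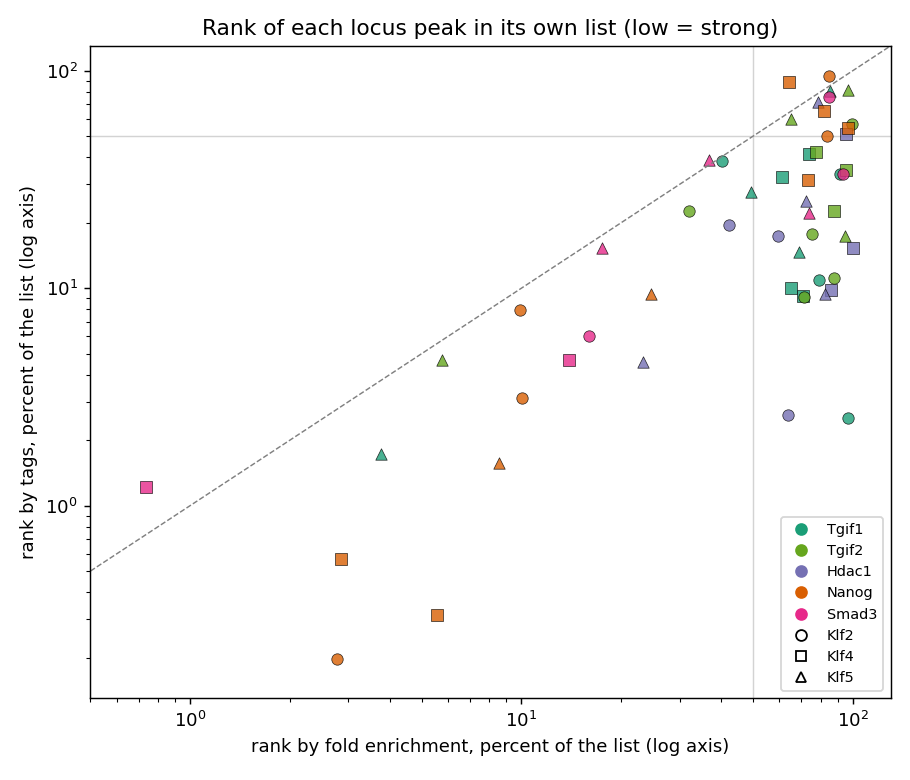
Rank of each of the 55 peaks in its own list by fold enrichment (x axis) and by tags (y axis), as a percent of the list on log axes, where low is strong; colours are factors, symbols are loci, the dashed line marks equal ranks and grey lines the middle of the list. Most Tgif1, Tgif2 and Hdac1 points lie below the dashed line at the right, stronger by tags than by fold, while the lowest points are Nanog at Klf2 (0.197% by tags) and Klf4 (0.313%).

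Against the 658 other regions of all 5 factors in the series, the 7 at the loci were higher in the middle for Nanog and Smad3 tags and lower in fold for the corepressor proteins. Nanog had a median of 245 tags in the 7 regions and 146 in the others, and Smad3 75.0 and 32.0. Smad3 tags reached the others' median in 6 of 7 regions and Nanog tags in 5 of 7. Tgif1 had a median of 75.0 tags in the 7 and 82.0 in the others, Tgif2 86.0 and 85.5, and Hdac1 73.0 and 87.0. By fold the medians were 10.5 and 17.6 for Tgif1, 9.84 and 15.8 for Tgif2, and 8.37 and 13.7 for Hdac1. Tgif1 and Hdac1 reached the others' median fold in 0 of 7 regions and Tgif2 in 1, region 1 of the Klf2 window. Among all 665 such regions, Smad3 fold at region 3 of the Klf4 window ranked 6 and Nanog tags at region 5 of the Klf2 window ranked 31. These are descriptions of 1 library per factor, and the differences were not tested.

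**Figure D3:**
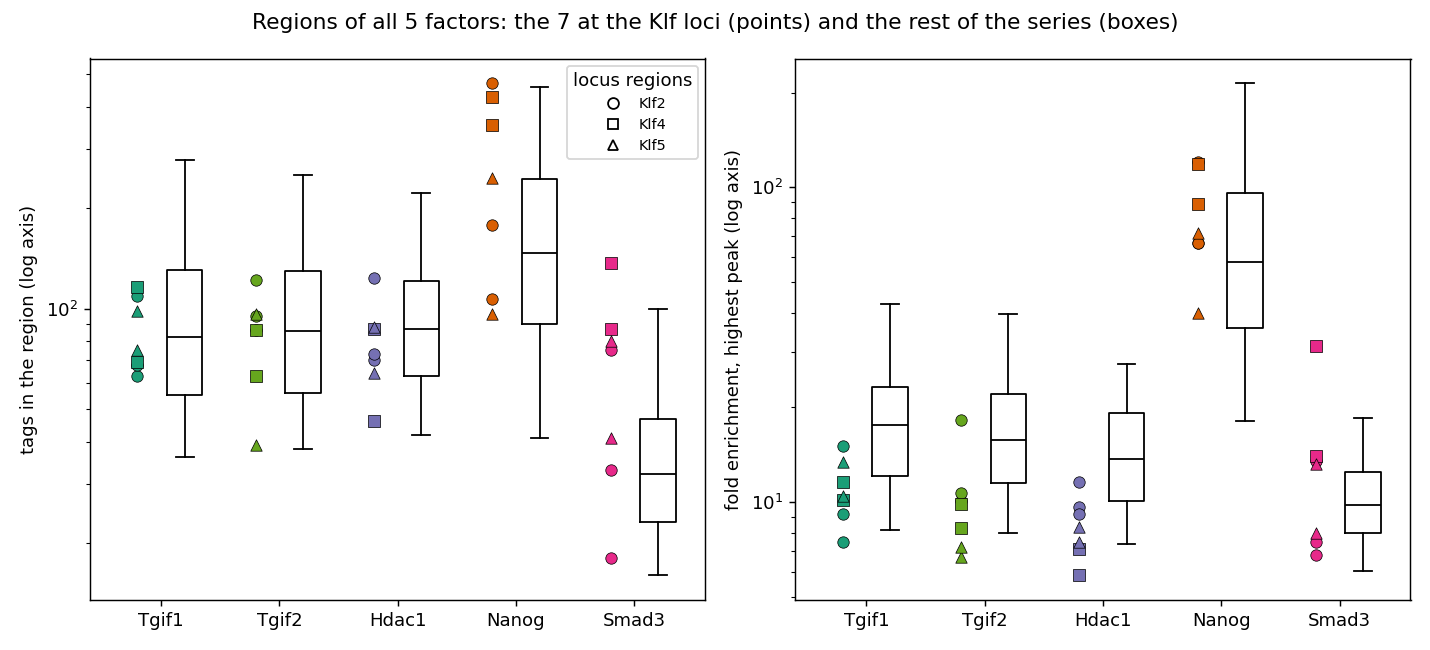
Tags per region (left) and fold enrichment of the highest peak per region (right), on log axes, for each factor in regions of all 5 factors; points are the 7 regions at Klf2, Klf4 and Klf5, and boxes show the quartiles and median of the 658 other regions with whiskers from 5 to 95%. Tgif1 and Hdac1 points lie below the box median by fold (medians 10.5 and 17.6 for Tgif1), whereas 6 of 7 Smad3 points lie above it by tags.

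Among the 4907 regions with Tgif1, Tgif2 and Hdac1 alone, region 1 of the Klf5 window ranked 71 by Tgif1 tags, 402 by Tgif2 tags and 185 by Hdac1 tags. Region 8 of the Klf4 window ranked 629, 2668 and 806 by the same measures, and region 2 of the Klf5 window 4375, 3926 and 4055. The 3 regions thus spanned the class from near its top to its lower end. By Hdac1 fold, region 8 of the Klf4 window ranked 4904 of 4907.

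Within the 7 regions of all 5 factors, Nanog and Smad3 summits lay close. The median distance over the 8 overlapping pairs of Nanog and Smad3 peaks was 17.5 bp at the loci, with a range of 5 to 586 bp, against 36.0 bp over 1128 pairs in the series. For Tgif2 and Nanog it was 37.0 bp at the loci and 73.0 bp in the series, and for Tgif1 and Nanog 85.0 bp and 63.0 bp. Tgif1 and Tgif2 summits were a median of 56.5 bp apart over 12 pairs at the loci, with a range of 1 to 1802 bp, and 43.0 bp in the series. For Hdac1 the medians were 57.0 bp to Nanog and 66.5 bp to Tgif1 at the loci, against 53.0 and 67.0 bp in the series. The 12 pairs of Tgif1 and Tgif2 and the 10 of Tgif1 and Hdac1 include regions without Nanog or Smad3. The loci medians rest on 7 to 12 pairs and lie on both sides of the series' values. By peak midpoints the order turned for Nanog and Smad3, with 121 bp at the loci and 94.5 bp in the series. It also turned for Tgif1 and Nanog (102 and 116 bp), Hdac1 and Nanog (92.5 and 115 bp) and Tgif1 and Hdac1 (110 and 102 bp), but not for Tgif2 and Nanog (46.0 and 126 bp) or Tgif1 and Tgif2 (218 and 88.5 bp).

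**Figure D4:**
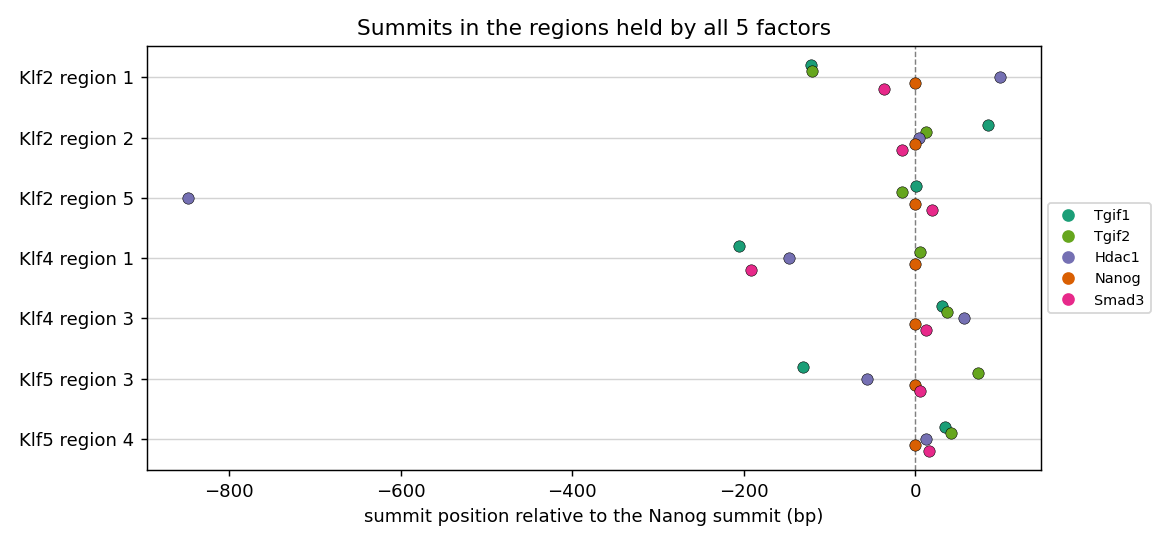
Summit positions of the 5 factors (colours) in the 7 regions of all 5 factors (rows), in bp from the Nanog summit; of a pair of peaks of 1 factor, that with more tags is shown. The 5 summits span 41 bp in region 4 of Klf5 and 57 bp in region 3 of Klf4, whereas Hdac1 stands 848 bp from Nanog in region 5 of Klf2.

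By the peak with the most tags of each factor, the tightest site was region 4 of the Klf5 window, where the 5 summits spanned 41 bp. The Smad3 peak of 31 tags in that region was left out, and its summit lay 586 bp from that of Nanog. Region 3 of the Klf4 window followed with 57 bp. The 5 summits spanned 101 bp in region 2 and 221 bp in region 1 of the Klf2 window. The spans were 204 bp in region 3 of the Klf5 window and 211 bp in region 1 of the Klf4 window. In region 5 of the Klf2 window the other 4 summits lay within 35 bp, but the Hdac1 summit was 848 bp from that of Nanog, which brought the span to 867 bp. In region 1 of the Klf4 window Tgif2 lay 6 bp from Nanog, while Tgif1, Smad3 and Hdac1 stood 205, 192 and 147 bp to its lower-coordinate side. Among sites without Nanog, the 3 summits of region 1 of the Klf5 window spanned 33 bp and those of region 8 of the Klf4 window 424 bp. In region 8, Tgif2 and Hdac1 lay 424 and 413 bp from Tgif1 on the same side.

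The windows were also set beside all consecutive windows of equal length along the chromosomes. At least 3 regions of all 5 factors, as at Klf2, were found in 10 of 52720 windows of 50 kb (0.0190%). At least 2, as at Klf4 and Klf5, were found in 0.250% of the windows of 100 kb and in 0.125% of those of 60 kb. At least 20 peaks of the 5 lists together, as at Klf2, were found in 0.436% of windows, the 18 of Klf4 or more in 2.75% and the 17 of Klf5 or more in 1.18%. For Smad3 alone, 0.0588% of windows had the 3 peaks of Klf2, 0.550% the 2 of Klf4 and 0.0842% the 3 of Klf5, or more. At Klf2, 4 or more Tgif1 peaks were found in 1.42% of windows, 5 or more Tgif2 peaks in 0.928%, 3 or more Hdac1 peaks in 3.07% and 5 or more Nanog peaks in 0.717%. At Klf4 the shares were 4.53% for Tgif1, 9.43% for Tgif2, 8.11% for Hdac1 and 1.54% for Nanog. At Klf5 they were 1.98% for Tgif1, 2.57% for Tgif2, 1.92% for Hdac1 and 8.67% for Nanog, with 2 Nanog peaks. The windows of the loci were placed around known genes and the others were not, so the shares describe and do not test.

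The window edge mattered most at Klf5, where ending the window 10 kb earlier would leave out region 4 and keep 11 of the 17 peaks. At Klf5, the Hdac1 and Nanog peaks of region 4 ran past the window's end and were kept whole. Just outside, the nearest peaks were Nanog at Klf5, 1.92 kb before the window with 21 tags, and Hdac1 at Klf2, 3.08 kb before it with 39 tags. Smad3 had its next peak 14.5 kb after the Klf5 window with 20 tags, and its nearest peaks outside the Klf2 and Klf4 windows lay 216 and 459 kb away.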

How the data were processed

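Per the labels, chromatin of J1 cells was cross-linked with 1% formaldehyde and sequenced on Illumina instruments. Per the submitters' processing notes, BWA 0.5.9-r16 and MACS were used with the mm9 build. Settings, the control used and library depth are not given in the sources used here. The deposited lists have no header. Fold enrichment (a ratio) and tag counts per peak are the authors' values, read from their range, and the summit is the position repeated in the last 3 columns. Coordinates are printed as deposited and may be off by 1 bp.

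Members, windows and motifs were chosen with earlier results of these data known. The text names each factor's strongest peak per locus by fold or tags and every region of 4 or 5 factors, and gives other peaks briefly. Ranks were taken by fold and by tags. Peaks were joined across lists at an overlap of at least 1 bp, and windows were tiled from each chromosome's start. With 1 library per factor no test was made. Alternatives covered window limits, overlap rules, fold and summits. Overlaps were tested on simulated data and checked against bedtools 2.31.1, where 0 of 20 counts differed. Sequence of mm9 was not used here, so no peak sequence is printed. The Klf5 promoter is not shown because the promoter sequences at hand had no entry for Klf5. Python 3.11.15, NumPy 2.4.6, pandas 2.3.3, SciPy 1.17.1 and matplotlib 3.10.9 were used.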

Additional observations from a re-analysis of the deposited data

How the results depend on the processing

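Dropping peaks under the median fold of their list changed most. It left 7 peaks in 3 regions at Klf2, 4 in 2 at Klf4 and 8 in 3 at Klf5, and 0 regions of all 5 factors at each of Klf2, Klf4 and Klf5 (0.867% of the series' regions under this setting). All of the 3 Tgif1, 2 Tgif2, 2 Hdac1 and 5 Smad3 peaks then left were overlapped by another factor, as were 6 of the 7 Nanog peaks. The 5 Smad3 peaks were all overlapped by Nanog, and 0 of them by Tgif1, Tgif2 or Hdac1. Overlap shares of the whole lists under this setting were not computed, so the overlap counts of all the factors describe the members only. Ranked by tags in place of fold, 11 Tgif1, 9 Tgif2 and 8 Hdac1 peaks reached the list's median. By summits within 200 bp, 6 of 22 regions had all 5 factors, against 1.31% in the series, and with overlaps of 50% of the shorter peak 7 of 18. Merging within 500 bp left 5 regions at Klf4 and 7 of all 5 factors over the loci. Windows shortened by 10 kb left 11 peaks at Klf5. Windows extended by 50 kb held 7 Nanog peaks at Klf5 in place of 2, 6 Hdac1 peaks at Klf2 in place of 3 and 8 Nanog peaks at Klf2 in place of 5. The median distance over the 85 shared pairs was 126 bp by peak midpoints and 50.0 bp by summits. Of 132 values for single factors, pairs and regions of at least 4 factors, 40 moved by over 1.5 times, 3 of them upward, those of the extended windows. Over all 189 alternative values 58 moved. Upward moves outside the 132 were the tag-ranked counts of Tgif1, Tgif2 and Hdac1 and the midpoint distance. No paired analysis was possible because each factor has 1 library. Depth limits what a missing peak means: a weaker site may lie under a list's unknown threshold.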
